A study of Mus musculus with 16 samples.

Results

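The 40 macrophage genes described here are a fixed list of mouse gene symbols that mark macrophages or are used by them, and each was found by its Ensembl identifier among the 52636 genes counted in every library. RNA was measured by bulk RNA sequencing of L3-6 dorsal root ganglia (DRGs), the clusters of sensory neuron cell bodies beside the spinal cord, from 16 male C57BL/6J mice aged 3 to 4 months, with 1 mouse per library and 4 mice per group. SNI-Saline and SNI-DMI mice had tibial spared nerve injury (SNI), in which branches of the sciatic nerve were tied and cut, and Sham-Saline and Sham-DMI mice had sham surgery. DMI mice then received desipramine (DMI), a tricyclic antidepressant that blocks noradrenaline reuptake, by injection at 15 mg/kg 2 times a day for 3 weeks, and saline mice received vehicle. The sources give both 4 weeks and 4 months between surgery and treatment, and the side the ganglia came from is not given in the sources used here. Because each library is a whole DRG sample, fewer macrophages and less RNA per macrophage cannot be told apart.

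Macrophages live in the DRG among the neurons and along its vessels, and they enlarge, divide and are joined by blood monocytes after a peripheral nerve is cut. They recognise antibody-coated targets through Fc receptors, whose signal runs through adaptor chains with tyrosine motifs, and they digest what they take up in lysosomes. Resident and perivascular macrophages are known for scavenger and mannose receptors, and macrophages that clear lipid-rich debris in damaged tissue are known for lipid receptors and for proteins such as galectin-3 and osteopontin.

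Reads on genes ranged from 41194238 to 73920332 per library. The labels name the tissue spinal cord and the cell type DRG, while the protocol describes DRGs. The 11 spinal cord markers summed to between 30.6 and 58.6 CPM (reads on the gene scaled to library size) and 11 sensory neuron markers to between 9322 and 11763 CPM. Within the spinal cord list the oligodendrocyte and motor neuron genes Olig2, Opalin, Chat and Mnx1 reached at most 0.29, 0.168, 0.0919 and 0.122 CPM. The oligodendrocyte genes Olig1 and Mog were higher and varied between libraries, at 0.0348 to 1.04 and 0.0512 to 0.749 CPM. The glial genes Aldh1l1, Aqp4, Slc1a2, Gjb6 and Gfap reached 17.4, 13.4, 14.2, 15 and 6.49 CPM. The microglial genes P2ry12 and Tmem119 were at 3.57 to 6.54 and 1.55 to 3.82 CPM. The surgery labels were checked with 8 injured-neuron markers, all 8 of which had log2 fold changes above 0 in both injury comparisons, with 7 called higher in SNI-Saline versus Sham-Saline and 6 in SNI-DMI versus Sham-DMI. Of all genes tested, 5.85% and 0.374% were called higher in those comparisons. Of the same 8 markers 6 were also called higher in Sham-DMI versus Sham-Saline, beside 11.6% of all genes. Their summed levels there were 349 to 392 against 288 to 317 CPM, below the 523 to 739 CPM of the injured mice. Gap43 alone was at 231 to 360 CPM over the 16 libraries. The median log2 fold change of the 8 markers was 0.965 in Sham-DMI versus Sham-Saline. It was 2.548 in SNI-Saline versus Sham-Saline and 1.594 in SNI-DMI versus Sham-DMI. Library numbers in the titles ran from 17 to 20 in Sham-DMI, 21 to 24 in SNI-DMI, 33 to 36 in SNI-Saline and 37 to 40 in Sham-Saline. Whatever went with that numbering cannot be told apart from DMI, or from injury under saline or under DMI.

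Of the 40 genes, 39 had enough counts to be tested. Marco, a scavenger receptor of alveolar and splenic macrophages, had 0 counts in 10 of the 16 libraries and at most 3 counts in any. Levels between genes were compared as RPKM (CPM divided by exon length in kilobases) in Sham-Saline, the untreated and uninjured group. Spp1 (osteopontin, a secreted phosphoprotein that some sensory neurons also make) was highest at 80.9 ± 11.3 RPKM (SD, n = 4). Lyz2 (lysozyme) was at 41.4 ± 2.63 RPKM and Ly86 (MD-1, the partner of a Toll-like receptor homologue) at 34.2 ± 2.96 RPKM. The order of Lyz2 and Ly86 depended on the gene length used, since with the length of the longest transcript they were at 41.4 and 46.3 RPKM. In Sham-Saline the 40 genes summed to 607 ± 23.2 CPM, and to 223 ± 6.5 CPM without Ly86, Spp1, Axl, Mertk and Hexim1. Which cells made the RNA of the genes left out of that sum was not tested.

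Hexim1 was at 20.3 ± 0.958 RPKM. It encodes a general inhibitor of the elongation factor P-TEFb and is not known as a macrophage marker, although it is on the list. Lgals3 (galectin-3, a sugar-binding lectin) was at 11.8 ± 1.74 RPKM and Ctss (cathepsin S, a lysosomal protease) at 9.95 ± 0.766 RPKM, and the mice of these 2 genes overlapped. Most defining markers were far lower. Adgre1 (F4/80) was at 1.9 ± 0.288 RPKM, Aif1 (Iba1, an actin-binding protein) at 2.19 ± 0.472 RPKM and Cd68 (a lysosomal glycoprotein) at 2.83 ± 0.18 RPKM. The lowest tested genes were Folr2 (folate receptor beta) at 0.0609 ± 0.0326 RPKM and Timd4 (a receptor for phosphatidylserine) at 0.0734 ± 0.0557 RPKM, in the reverse order with the longest transcript (0.0782 and 0.0734 RPKM), resting on 2 to 15 and 0 to 30 counts per library. Some counts are uncertain because of shared sequence, with 52.6% of the 50-base windows of Folr2 also in Gm10602 on the opposite strand, 11.6% of those of Spp1 in Gm42793 and 8.02% of those of Itgax in Itgad.

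**Figure D1:**
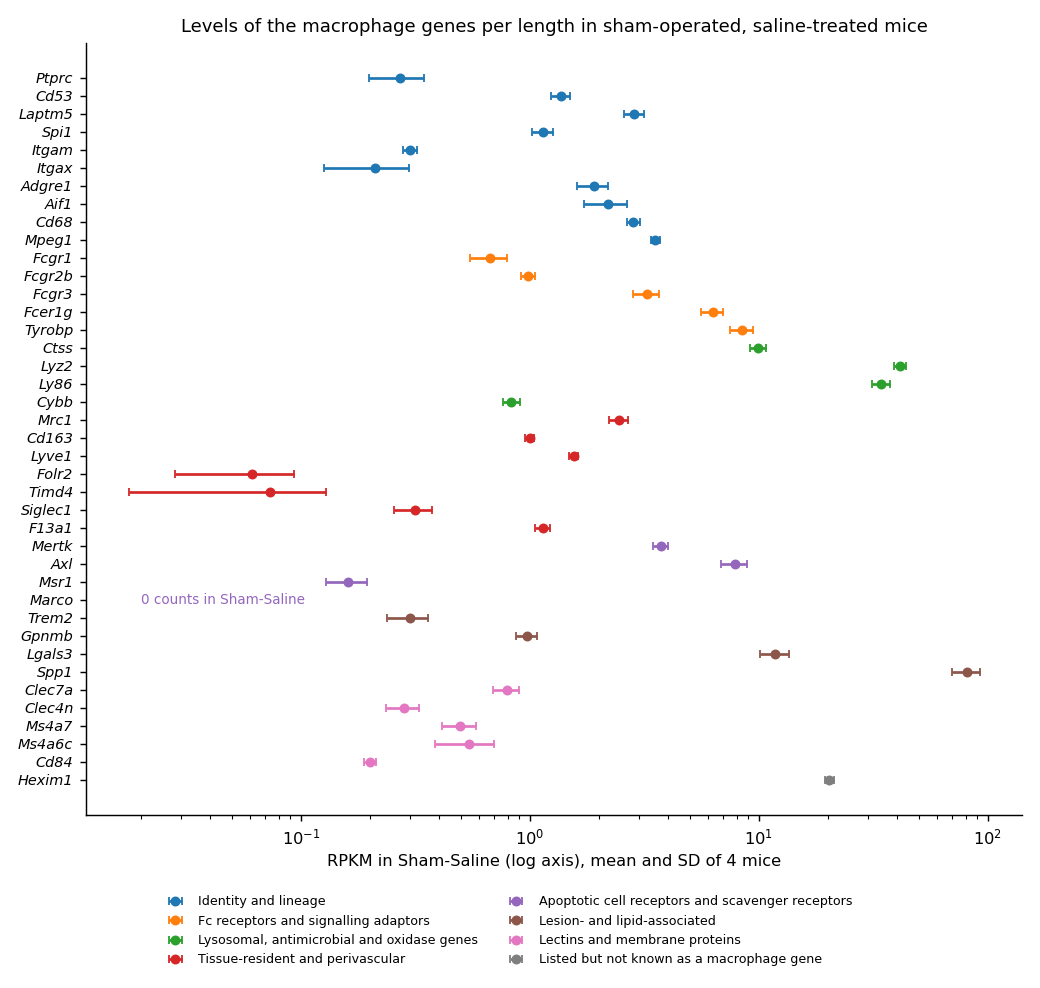
Levels of the 40 genes in Sham-Saline in RPKM on a log axis, grouped by role; points are means and bars SDs of 4 mice. Spp1 lies highest at 80.9 RPKM, Folr2 and Timd4 lie lowest among the tested genes at 0.0609 and 0.0734 RPKM, and Marco had 0 counts.

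To ask how injury alone was associated with these genes, SNI-Saline was compared with Sham-Saline. At an adjusted p under 0.1 (edgeR's quasi-likelihood test with Benjamini-Hochberg adjustment over 21371 genes), 15 of the 39 tested genes were higher and 0 were lower, where 5.85% of all genes tested were higher and 6.18% lower. The genes that rose were all 4 of the lipid and lesion group, 4 of 5 Fc receptor and adaptor genes, 2 of 4 lysosomal, antimicrobial and oxidase genes, 3 of 10 identity genes and 2 of 5 lectin and membrane protein genes. None of the 7 genes of resident and perivascular macrophages passed the test. The median log2 fold change of the 39 genes was 0.449, beside -0.001 for all genes tested, and 35 of the 39 were above 0. Under a looser rule, an unadjusted p below 0.05 and a log2 fold change of 0.32 or more in size, 17 were higher and 0 lower, beside 3.64% of all genes higher. In 14 of the 39 every SNI-Saline mouse was above every Sham-Saline mouse, beside 7.67% of all genes.

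All 4 genes of the lesion and lipid group rose. On GRCm38, in GENCODE M21, the protein-coding genes Gpnmb (ENSMUSG00000029816), Trem2 (ENSMUSG00000023992) and Lgals3 (ENSMUSG00000050335) lie on the plus strand at chr6:49036546-49070929, chr17:48346401-48354147 and chr14:47367751-47386160. Gpnmb, a glycoprotein of lipid-laden macrophages with many lysosomes, was at 7.16, 6.44, 6.06 and 5.6 CPM in Sham-Saline mice and at 9.49, 15.6, 11.2 and 9.56 CPM in SNI-Saline mice. The groups did not overlap, and Gpnmb had the smallest p of the 39 (log2 fold change 0.86 ± 0.159 SE, adjusted p = 0.00923). Trem2, a lipid-sensing receptor that signals through Tyrobp, was at 1.22, 1.92, 1.37 and 1.4 CPM in Sham-Saline and at 2.43, 5.12, 3.66 and 2.69 CPM in SNI-Saline. It had the largest fold change of the 39, with no overlap (1.23 ± 0.251, adjusted p = 0.0151). Lgals3 was at 24.4, 24.9, 19.4 and 18.7 CPM in Sham-Saline and at 32.1, 40.4, 32.2 and 35.7 CPM in SNI-Saline, again with the groups apart (0.68 ± 0.128, adjusted p = 0.00983). Spp1 was at 107 to 147 CPM in Sham-Saline and at 149 to 204 CPM in SNI-Saline, a smaller difference (0.41 ± 0.14, adjusted p = 0.0898). Gpnmb, Trem2 and Lgals3 stayed below an adjusted p of 0.1 with any 1 of the 16 libraries left out.

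Of the 5 Fc receptor and adaptor genes, 4 rose. Tyrobp (DAP12), the adaptor of Trem2 and other receptors, was at 6.09, 6.17, 4.77 and 5.49 CPM in Sham-Saline and at 7.95, 13.6, 9.25 and 6.71 CPM in SNI-Saline. Fcer1g, the common Fc receptor gamma chain, was at 5.63, 5.79, 4.6 and 5.95 CPM in Sham-Saline and at 7.65, 12.5, 7.92 and 6.2 CPM in SNI-Saline. Both adaptors were higher in every SNI-Saline mouse than in any Sham-Saline mouse (0.74 ± 0.201, adjusted p = 0.0418, and 0.64 ± 0.216, adjusted p = 0.0842). Fcgr2b, the inhibitory IgG receptor, was at 6.19, 5.28, 5.59 and 5.74 CPM in Sham-Saline and at 6.78, 10.5, 7.55 and 7.72 CPM in SNI-Saline. Fcgr3, an activating IgG receptor, was at 5.36, 6.52, 4.8 and 5.78 CPM in Sham-Saline and at 7.17, 11.4, 8.8 and 6.39 CPM in SNI-Saline. Fcgr2b did not overlap (0.51 ± 0.154, adjusted p = 0.0568), while the lowest SNI-Saline mouse for Fcgr3 lay below the highest Sham-Saline mouse (0.59 ± 0.189, adjusted p = 0.0736). These 2 genes share sequence, with 9.58% of the 50-base windows of Fcgr3 also in Fcgr2b. The high-affinity receptor Fcgr1 was not called, at 1.73 ± 0.321 and 2.37 ± 0.555 CPM (adjusted p = 0.344).

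Among the lysosomal and antimicrobial genes, Ctss and Lyz2 rose and Ly86 and Cybb were not called. Ctss was at 14.1, 12.5, 12.7 and 14.6 CPM in Sham-Saline and at 21, 46.3, 22.2 and 19.1 CPM in SNI-Saline. The groups were apart, with SNI-Saline replicate 2 far above the other SNI-Saline mice (1.01 ± 0.254, adjusted p = 0.032). Lyz2 was at 50.8, 55.6, 52.7 and 58.7 CPM in Sham-Saline and at 69.2, 133, 77.4 and 65.9 CPM in SNI-Saline, with the same mouse highest (0.67 ± 0.22, adjusted p = 0.0784). Of the windows of Lyz2, 15.4% are shared with its neighbour Lyz1. Ly86 was at 124 ± 10.7 and 135 ± 8.25 CPM (adjusted p = 0.414). Cybb, the catalytic subunit of the phagocyte oxidase, was at 4.83 ± 0.411 and 6.4 ± 2.28 CPM (adjusted p = 0.339).

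The 10 identity and lineage genes parted. Aif1, Cd68 and Mpeg1 rose and the other 7 were not called. Cd68 was at 3.3, 3.85, 3.52 and 3.53 CPM in Sham-Saline and at 4.93, 8.06, 6.04 and 5.24 CPM in SNI-Saline. Mpeg1, a pore-forming protein of phagosomes, was at 15.3, 14.4, 15.5 and 16 CPM in Sham-Saline and at 22, 40, 23.5 and 21.2 CPM in SNI-Saline. Neither overlapped (0.77 ± 0.216, adjusted p = 0.0454, and 0.80 ± 0.258, adjusted p = 0.0724). Aif1 was at 2.76, 3.54, 2.82 and 4.3 CPM in Sham-Saline and at 4.96, 8.55, 4.08 and 4.54 CPM in SNI-Saline, where 1 SNI-Saline mouse fell below the highest Sham-Saline mouse (0.72 ± 0.249, adjusted p = 0.0908).

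The general leukocyte and myeloid genes Ptprc (ENSMUSG00000026395, chr1:138062861-138175708, minus strand), Cd53 (ENSMUSG00000040747, chr3:106759921-106790149, minus strand) and Itgam overlapped between Sham-Saline and SNI-Saline. Ptprc (CD45, the phosphatase on all leukocytes) was at 6.99, 4.18, 4.25 and 4.47 CPM in Sham-Saline and at 4.58, 8.6, 5.11 and 4.48 CPM in SNI-Saline. Cd53, a leukocyte tetraspanin, was at 2.49, 2.64, 2.15 and 2.25 CPM in Sham-Saline and at 1.96, 3.21, 2.75 and 2.28 CPM in SNI-Saline. Itgam (CD11b, an integrin chain) was at 1.58, 1.38, 1.46 and 1.62 CPM in Sham-Saline and at 1.34, 1.82, 1.25 and 1.76 CPM in SNI-Saline. Their log2 fold changes were 0.20 ± 0.227, 0.10 ± 0.207 and 0.03 ± 0.222 (adjusted p = 0.657, 0.827 and 0.953), and each was below 0 without SNI-Saline replicate 2. Of the windows of Itgam, 66.3% are also in the overlapping gene Gm49368 on the same strand, so its counts are uncertain. Adgre1 was at 6.15 ± 0.933 and 8.29 ± 3.59 CPM (adjusted p = 0.294), and Itgax (CD11c) was at 1.02 ± 0.408 and 1.95 ± 0.828 CPM (adjusted p = 0.234). Laptm5, a lysosomal membrane protein of blood cells, and Spi1, which encodes the macrophage transcription factor PU.1, were at 10.8 ± 1.05 and 3.06 ± 0.319 CPM in Sham-Saline and at 11.6 ± 3.47 and 3.72 ± 1.3 CPM in SNI-Saline.

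In the resident and perivascular group the 7 log2 fold changes had a median of -0.008. Mrc1, the mannose receptor CD206, was at 15.6 ± 1.46 CPM in Sham-Saline and 16.2 ± 2.86 CPM in SNI-Saline. Cd163, the receptor for haemoglobin bound to haptoglobin, was the lowest of the 39 at 5.45 ± 0.25 and 4.43 ± 1.02 CPM (-0.30 ± 0.137, adjusted p = 0.201). It was called lower, 1 of 14 calls, without SNI-Saline replicate 3. Lyve1, a hyaluronan receptor also found on lymphatic vessels, was at 4.52 ± 0.199 and 4.35 ± 0.408 CPM. F13a1, the clotting factor XIII A chain, was at 7.65 ± 0.585 and 7.02 ± 1.24 CPM. Siglec1 (sialoadhesin) was at 1.81, 2.07, 2.82 and 2.31 CPM in Sham-Saline and at 1.68, 2.87, 2.41 and 2 CPM in SNI-Saline, with the groups overlapping (adjusted p = 0.991).

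The receptors for dying cells were not called by edgeR on all 16 libraries. Axl was called higher with no filter on low counts, by DESeq2, and by edgeR on the 8 libraries compared. The share of all genes called in those fits is not given here. Axl and Mertk, tyrosine kinases that bind bridging proteins on apoptotic cells, were at 39.6 ± 5.23 and 16.1 ± 1.24 CPM in Sham-Saline and at 47.7 ± 3.87 and 18.8 ± 1.52 CPM in SNI-Saline (adjusted p = 0.118 and 0.371). Msr1, a scavenger receptor, was at 1.02 ± 0.208 and 1.29 ± 0.343 CPM (adjusted p = 0.451).

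Of the 5 lectin and membrane protein genes, Ms4a7 and Cd84 rose. Ms4a7, a 4-pass membrane protein, was at 2.03, 2.3, 1.84 and 2.69 CPM in Sham-Saline and at 2.95, 8.18, 4.3 and 2.96 CPM in SNI-Saline. Cd84, an adhesion receptor of the SLAM family, was at 1.23, 1.27, 1.36 and 1.18 CPM in Sham-Saline and at 1.59, 4.2, 2.3 and 1.59 CPM in SNI-Saline. Neither overlapped, and SNI-Saline replicate 2 was the highest for both (1.05 ± 0.3, adjusted p = 0.048, and 0.94 ± 0.317, adjusted p = 0.0824). Clec4n (dectin-2) had a log2 fold change as large and no overlap, at 0.401 ± 0.0657 and 0.834 ± 0.1 CPM, and missed the threshold (1.06 ± 0.388, adjusted p = 0.108). Clec7a (dectin-1, a receptor for fungal glucans) was at 1.9, 2.48, 2.07 and 1.93 CPM in Sham-Saline and at 2.59, 4.94, 2.83 and 2.35 CPM in SNI-Saline (0.60 ± 0.264, adjusted p = 0.18). Ms4a6c was at 1.11 ± 0.324 and 1.53 ± 0.675 CPM (adjusted p = 0.31), and 49.6% of its windows lie in BE692007 on the opposite strand. Hexim1 was at 71.6, 70.5, 66.9 and 75 CPM in Sham-Saline and at 72, 74.7, 71.8 and 71.8 CPM in SNI-Saline (adjusted p = 0.788).

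**Figure D2:**
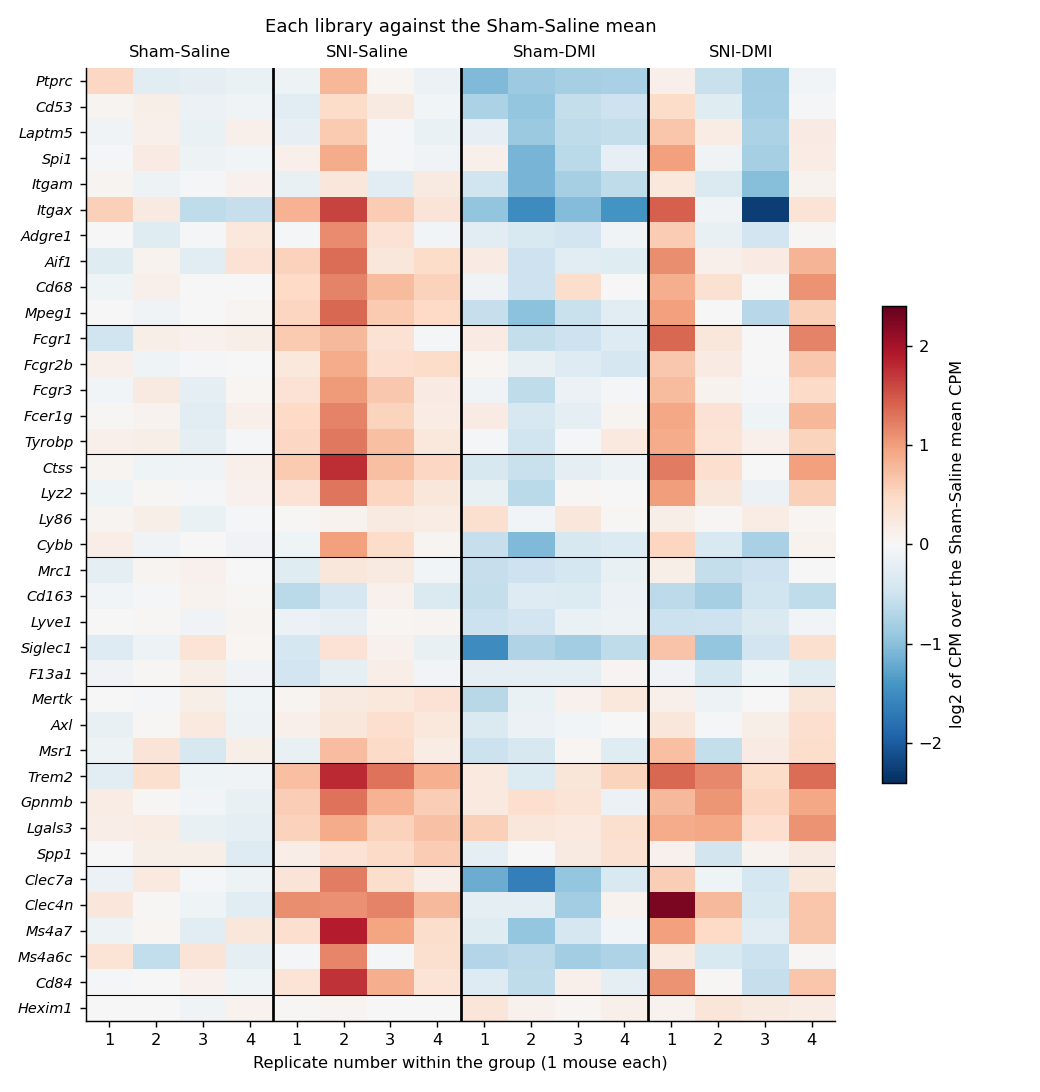
Log2 of each library's CPM over the Sham-Saline mean CPM, for 37 genes (rows, by role, without Marco, Folr2 and Timd4, whose counts were at most 30) and 16 mice (columns, by group and replicate number). Red is above and blue below the Sham-Saline mean, with SNI-Saline replicate 2 and SNI-DMI replicate 1 the reddest columns of their groups and Sham-DMI mostly blue.

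The SNI-Saline mice differed among themselves. SNI-Saline replicate 2 was the highest of its group in 29 of the 39 genes (74.4%, beside 25.4% of all genes tested), and SNI-Saline replicate 1 was the highest in 0. The SD between mice of the mean log2 CPM of the 39 genes was 0.0405 in Sham-Saline and 0.288 in SNI-Saline. Without SNI-Saline replicate 2 the number called was 3 (Gpnmb, Lgals3 and Trem2) and the median log2 fold change 0.335. Leaving out Sham-Saline replicates 1, 2, 3 and 4 gave 6, 10, 5 and 8, SNI-Saline replicate 1 gave 8, and any other library gave 13 to 16. For these fits the share of all genes called is not given here. In SNI-Saline replicate 2 the summed neutrophil markers were at 59.4 CPM and T and NK cell markers at 10.4 CPM, the highest of their group, where the other SNI-Saline mice were at 19.6 to 29 and 6.17 to 7.21 CPM. Their part in the result was not tested.

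**Figure D3:**
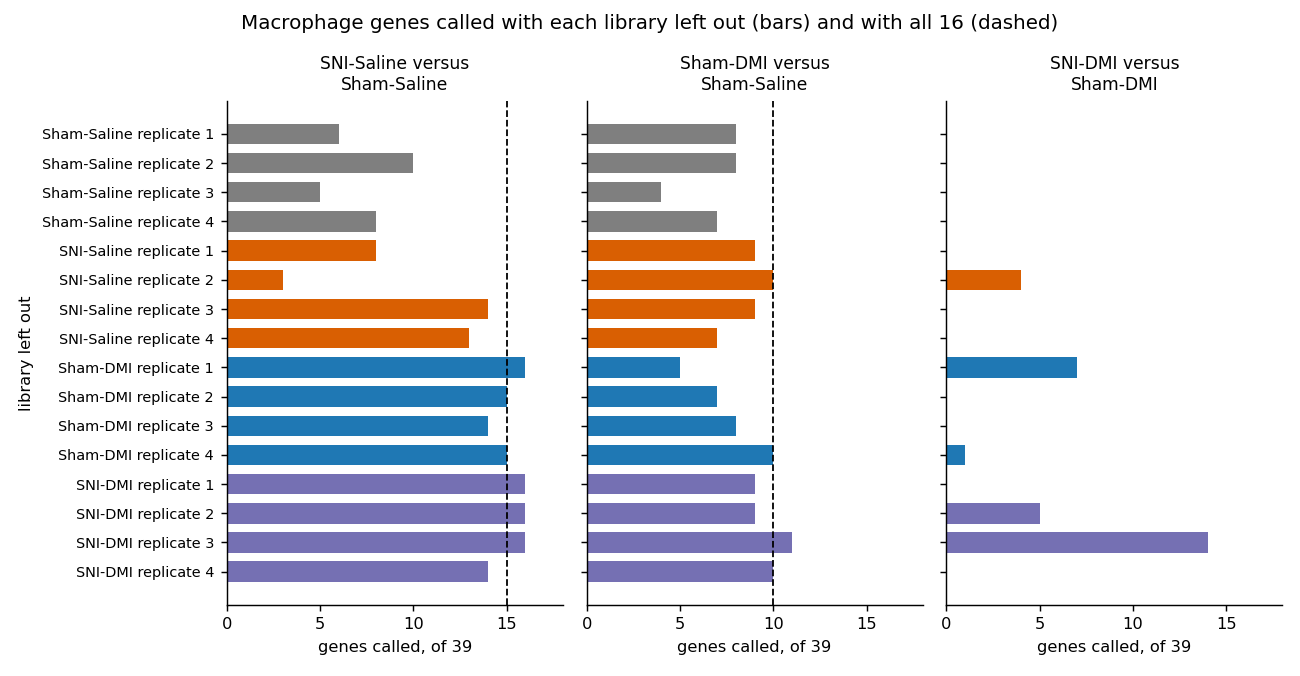
Number of the 39 genes called at an adjusted p under 0.1 (horizontal axis) when each library (vertical axis, coloured by group) was left out; dashed lines mark all 16 libraries, which gave 15, 10 and 0 calls. The first comparison falls to 3 without SNI-Saline replicate 2 and the last goes up to 14 without SNI-DMI replicate 3.

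Promoter sequences are shown for members that rose in SNI-Saline versus Sham-Saline (Ctss, Trem2, Gpnmb) and members not called in that comparison (Cd53, Mrc1). The reason is that PU.1 is itself encoded by a listed gene. RefSeq windows on GRCm38.p6, from 250 bases before to 50 bases after the start site, matched 32 of the 40 genes. No window was matched for Adgre1, Lyve1, Tyrobp, Msr1, Clec7a, Clec4n, Spi1 and Siglec1. Only genes annotated as protein-coding were searched, which left out Clec7a, a polymorphic pseudogene in GENCODE M21. Capitals mark the PU.1 core GAGGAA on either strand, so that TTCCTC is the same core read from the other strand, and the longer form GAGGAAGT or ACTTCCTC where it occurs.
Ctss, chr3:95526536-95526835, plus strand: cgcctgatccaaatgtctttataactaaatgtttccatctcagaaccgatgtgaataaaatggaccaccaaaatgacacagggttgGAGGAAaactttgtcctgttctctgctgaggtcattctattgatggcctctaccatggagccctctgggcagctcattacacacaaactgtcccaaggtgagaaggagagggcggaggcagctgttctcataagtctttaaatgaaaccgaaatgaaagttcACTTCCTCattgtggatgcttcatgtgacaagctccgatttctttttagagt
Trem2, chr17:48346151-48346450, plus strand: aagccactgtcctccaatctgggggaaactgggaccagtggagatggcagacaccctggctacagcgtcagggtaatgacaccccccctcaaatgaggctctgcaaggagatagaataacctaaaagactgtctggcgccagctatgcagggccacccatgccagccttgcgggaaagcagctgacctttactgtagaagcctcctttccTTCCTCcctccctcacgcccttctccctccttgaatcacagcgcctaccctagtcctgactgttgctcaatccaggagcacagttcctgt
Gpnmb, chr6:49036268-49036567, plus strand: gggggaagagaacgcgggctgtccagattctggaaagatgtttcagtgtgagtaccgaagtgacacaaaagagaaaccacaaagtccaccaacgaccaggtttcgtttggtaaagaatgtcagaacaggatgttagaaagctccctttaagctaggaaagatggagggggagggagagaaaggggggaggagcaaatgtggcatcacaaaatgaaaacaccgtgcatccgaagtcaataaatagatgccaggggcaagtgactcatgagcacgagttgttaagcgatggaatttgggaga
Cd53, chr3:106790100-106790399, minus strand: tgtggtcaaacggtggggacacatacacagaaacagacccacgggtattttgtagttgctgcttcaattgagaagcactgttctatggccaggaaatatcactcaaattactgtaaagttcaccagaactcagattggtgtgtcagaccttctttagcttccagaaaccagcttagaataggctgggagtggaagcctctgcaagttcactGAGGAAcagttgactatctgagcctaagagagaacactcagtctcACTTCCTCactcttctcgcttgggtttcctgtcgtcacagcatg
Mrc1, chr2:14229164-14229463, plus strand: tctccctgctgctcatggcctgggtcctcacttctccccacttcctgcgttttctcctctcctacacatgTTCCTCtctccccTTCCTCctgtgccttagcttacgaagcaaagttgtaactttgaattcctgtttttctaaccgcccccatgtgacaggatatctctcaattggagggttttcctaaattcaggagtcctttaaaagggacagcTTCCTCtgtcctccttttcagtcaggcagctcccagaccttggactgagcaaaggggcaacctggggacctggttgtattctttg

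The core GAGGAA was present on either strand in 19 of the 32 windows (59.4%), beside 27.1% of 16478 RefSeq windows of this length, 1 per protein-coding gene. GAGGAAGT, which contains that core, was in 3 of the 32 (Ctss, Spp1 and Cd53, 9.38%), beside 3.14% of all. The E-box CACGTG, which reads the same on both strands, was in 0 of the 32, beside 8.1% of all. The core was in Ctss and Trem2, which rose in SNI-Saline versus Sham-Saline, and in Cd53 and Mrc1, which were not called there. The core was not in Gpnmb. For Fcgr3, Lgals3 and Cybb the RefSeq start site lies 5532, 6109 and 18447 bases from the GENCODE gene start.

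Under DMI, SNI-DMI was compared with Sham-DMI. None of the 39 genes was called, where 0.374% of all genes tested were higher, although 34 were above 0 and the median log2 fold change was 0.593. At a nominal p under 0.05 with the same fold cut-off 26 were higher and 0 lower, beside 4.07% of all genes higher. DESeq2 called 11 genes on all 16 libraries, where it called 1.72% of all genes higher, and 10 on these 8, where it called 1.51%. With no filter on low counts edgeR called 15, beside 0.725% of all genes. In 5 of the 39 genes every SNI-DMI mouse was above every Sham-DMI mouse, beside 2.89% of all genes. This comparison shares no library with that of SNI-Saline and Sham-Saline. Of the 15 genes that rose there, 14 were above 0 here, 13 passed the looser rule, and 3 (Gpnmb, Ctss and Fcgr3) did not overlap. Spp1 was the exception at -0.09 ± 0.14.

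Gpnmb was at 7.45, 8.39, 7.94 and 5.74 CPM in Sham-DMI and at 10.9, 13.2, 8.99 and 12 CPM in SNI-DMI (0.62 ± 0.159, adjusted p = 0.133). Ctss was at 10.4, 9.36, 11.6 and 12.4 CPM in Sham-DMI and at 31.9, 17.9, 13.6 and 26.7 CPM in SNI-DMI (1.04 ± 0.257, adjusted p = 0.127). Fcgr3 was at 5.29, 3.66, 5.12 and 5.44 CPM in Sham-DMI and at 9.5, 5.97, 5.48 and 7.76 CPM in SNI-DMI. In each of these genes the lowest SNI-DMI mouse lay above the highest Sham-DMI mouse, and for Fcgr3 the gap was small. Trem2 was at 1.74, 1.18, 1.8 and 2.13 CPM in Sham-DMI and at 3.83, 3.28, 2 and 3.77 CPM in SNI-DMI (0.92 ± 0.25, adjusted p = 0.163). Lgals3 was at 32.6, 26.5, 25.9 and 28.6 CPM in Sham-DMI and at 40.8, 41.5, 28.8 and 46 CPM in SNI-DMI (0.47 ± 0.127, adjusted p = 0.157). For both, SNI-DMI replicate 3 fell within the range of Sham-DMI.

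In 9 other genes that rose with injury under saline, SNI-DMI replicates 1 and 4 were the highest of their group, and replicate 3 was the lowest in all but Aif1. Tyrobp was at 5.55, 4.02, 5.47 and 6.59 CPM in Sham-DMI and at 10.5, 7.03, 6.15 and 8.14 CPM in SNI-DMI. Fcer1g was at 6.3, 4.23, 4.67 and 5.72 CPM in Sham-DMI and at 10.5, 6.97, 5.1 and 9.6 CPM in SNI-DMI. For both adaptors only SNI-DMI replicate 3 lay within the Sham-DMI range. Fcgr2b was at 5.86, 5.01, 4.6 and 4.29 CPM in Sham-DMI and at 8.96, 6.54, 5.74 and 8.89 CPM in SNI-DMI (0.61 ± 0.155, adjusted p = 0.133). Lyz2 was at 48.1, 34.8, 55.3 and 53.7 CPM in Sham-DMI and at 109, 65.9, 49.6 and 80.9 CPM in SNI-DMI. Mpeg1 was at 10.4, 7.73, 10.6 and 12.8 CPM in Sham-DMI and at 30.1, 15.5, 9.62 and 22.7 CPM in SNI-DMI. Mpeg1 in SNI-DMI replicate 3 lay below 3 of the 4 Sham-DMI mice.

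Cd68 was at 3.36, 2.53, 4.77 and 3.58 CPM in Sham-DMI and at 6.52, 4.58, 3.51 and 7.46 CPM in SNI-DMI. Aif1 was at 3.86, 2.37, 2.8 and 2.73 CPM in Sham-DMI and at 7.25, 3.68, 3.84 and 5.92 CPM in SNI-DMI. Both overlapped. Ms4a7 was at 1.81, 1.17, 1.67 and 2.13 CPM in Sham-DMI and at 4.41, 3.08, 1.83 and 3.51 CPM in SNI-DMI. Cd84 was at 1.02, 0.823, 1.37 and 1.07 CPM in Sham-DMI and at 2.65, 1.29, 0.858 and 1.99 CPM in SNI-DMI. The overlap again came through SNI-DMI replicate 3, and for Cd84 also through replicate 2. Fcgr1, which was not called under saline, had the smallest p here after Ctss (1.09 ± 0.276, adjusted p = 0.13), at 1.17 to 1.98 CPM in Sham-DMI and 1.75 to 4.51 CPM in SNI-DMI.

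SNI-DMI replicate 1 was the highest of its group in 28 of the 39 genes (71.8%, beside 23.1% of all genes) and SNI-DMI replicate 3 the lowest in 25 (64.1%, beside 23.4%). The SD between mice of the mean log2 CPM of the 39 genes was 0.398 in SNI-DMI and 0.151 in Sham-DMI. Without SNI-DMI replicate 3 the number called was 14, all higher. Leaving out Sham-DMI replicate 1 gave 7, SNI-DMI replicate 2 gave 5, SNI-Saline replicate 2 gave 4, Sham-DMI replicate 4 gave 1, and any other library gave 0. The share of all genes called in these fits is not given here, so the counts cannot be set against it. SNI-DMI replicate 3 had 550 CPM of the injured-neuron markers, where Sham-DMI mice had 349 to 392 CPM.

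To ask how DMI was associated with these genes without injury, Sham-DMI was compared with Sham-Saline. The number called was 10 of 39, with 8 lower and 2 higher, where 11.9% of all genes tested were lower and 11.6% higher. The 8 that fell were Ptprc, Cd53, Itgam, Mrc1, Lyve1, Siglec1, Clec7a and Ms4a6c, namely 3 of 10 identity genes, 3 of 7 resident genes and 2 of 5 lectin and membrane protein genes. The 2 that rose were Lgals3 and Hexim1. The median log2 fold change was -0.268, beside -0.021 for all genes, and 13 of the 39 genes had every Sham-DMI mouse below every Sham-Saline mouse, beside 8.51% of all genes. Of the 15 genes that rose with injury under saline, Lgals3 was the only one called in this comparison by edgeR on all 16 libraries.

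Ptprc was at 2.39, 2.73, 2.85 and 2.9 CPM in Sham-DMI, below every Sham-Saline mouse (-0.87 ± 0.234, adjusted p = 0.0177). Cd53 was at 1.4, 1.25, 1.6 and 1.69 CPM in Sham-DMI (-0.69 ± 0.214, adjusted p = 0.0353) and Itgam at 1.09, 0.7, 0.874 and 0.993 CPM (-0.72 ± 0.23, adjusted p = 0.0388). Both lay below every Sham-Saline mouse. Clec7a was at 0.922, 0.672, 1.1 and 1.64 CPM in Sham-DMI (-0.96 ± 0.279, adjusted p = 0.0263) and Siglec1 at 0.786, 1.36, 1.27 and 1.47 CPM (-0.88 ± 0.292, adjusted p = 0.0466). These too were below every Sham-Saline mouse. Mrc1 was at 10.7 to 13.7 CPM in Sham-DMI and 13.5 to 16.7 CPM in Sham-Saline, with a narrow overlap (-0.40 ± 0.149, adjusted p = 0.0734). Lyve1 was at 3.66 ± 0.496 CPM in Sham-DMI (-0.31 ± 0.123, adjusted p = 0.0968) and Ms4a6c at 0.671 ± 0.0375 CPM (-0.72 ± 0.28, adjusted p = 0.0893).

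Lgals3 moved the other way, with every Sham-DMI mouse above every Sham-Saline mouse (0.38 ± 0.128, adjusted p = 0.0512). Which cells the Lgals3 RNA came from was not tested. Hexim1 was at 86.4, 76.1, 73.5 and 77 CPM in Sham-DMI, with 1 mouse inside the Sham-Saline range (0.14 ± 0.0556, adjusted p = 0.0932). Trem2 and Gpnmb had log2 fold changes of 0.20 ± 0.257 and 0.22 ± 0.16 (adjusted p = 0.643 and 0.371). Ctss was below every Sham-Saline mouse and was not called by edgeR on all 16 libraries (-0.30 ± 0.258, adjusted p = 0.462). On the 8 libraries compared both edgeR and DESeq2 called it lower, and the share of all genes called there is not given here.

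Ptprc, Cd53 and Clec7a stayed below an adjusted p of 0.1 with any 1 of the 16 libraries left out, whereas the call of Lyve1 was lost in 13 of the 16 such fits, that of Ms4a6c in 11, that of Mrc1 in 6, that of Hexim1 in 5, that of Lgals3 in 3, that of Siglec1 in 2 and that of Itgam in 1. The number called was 4 without Sham-Saline replicate 3 and 5 without Sham-DMI replicate 1, and 7 to 11 without any other. For these fits, too, the share of all genes called is not given here. When each library's dependence on gene GC content and gene length was taken out, 4 were called, namely Clec7a, Itgam, Siglec1 and Laptm5, and the calls of Ptprc and Cd53 were lost. The share of all genes called in that fit is not given here either. Markers of other cells moved in both directions in Sham-DMI, where 11.6% of all genes were called higher and 11.9% lower. Of 8 injured-neuron markers 6 rose and of 11 sensory neuron markers 4 rose. Of 6 tested microglia markers 2 fell, at summed levels of 8.03 to 10.5 against 11 to 13.1 CPM. Of 7 tested spinal cord markers 2 also fell, at summed levels of 30.6 to 50 against 42 to 49.8 CPM. Of 12 tested neutrophil markers 8 fell, with summed levels of 6.17 to 21 CPM against 14.3 to 45.6 CPM in Sham-Saline, and of 7 tested B cell markers 4 fell, at 2.4 to 3.29 against 4.57 to 8.29 CPM. Ptprc, Cd53 and Itgam are also expressed by those cells, and the part of those cells in the result was not tested. Of 11 T and NK cell markers 0 were called, at 4.65 to 5.31 against 5.56 to 6.07 CPM.

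**Figure D4:**
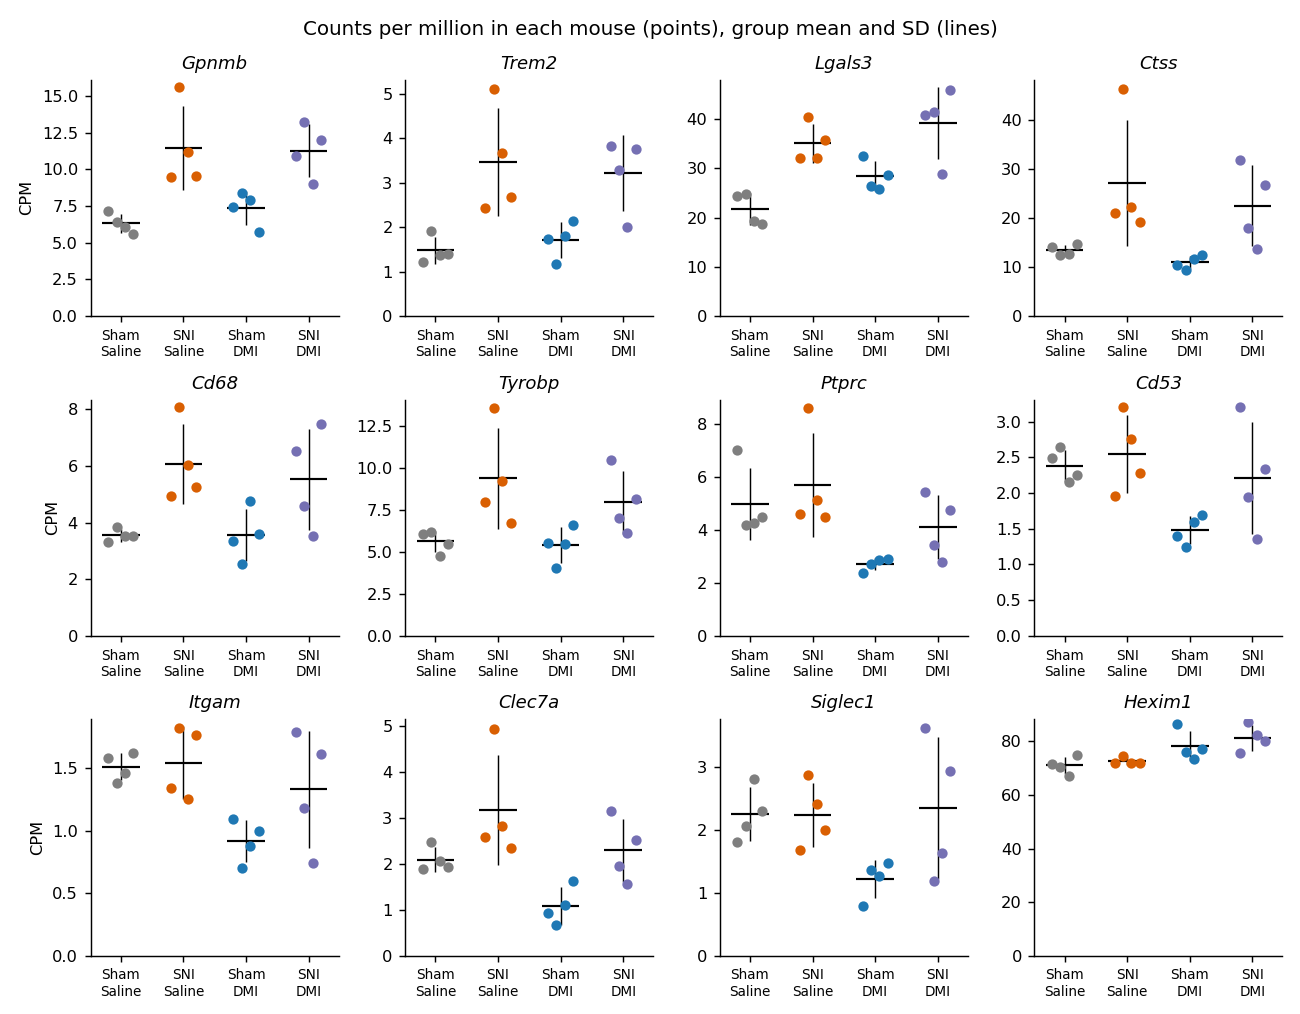
CPM of 12 genes in each mouse (points) by group, with group means (horizontal lines) and SDs (vertical lines) of 4 mice and axes starting at 0. Gpnmb, Trem2, Lgals3, Ctss, Cd68 and Tyrobp are higher in SNI-Saline than in Sham-Saline, and Ptprc, Cd53, Itgam, Clec7a and Siglec1 are lower in Sham-DMI than in Sham-Saline.

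To ask how DMI was associated with these genes after injury, SNI-DMI was compared with SNI-Saline. None of the 39 genes was called by edgeR on all 16 libraries, where 2.93% of all genes tested were called in either direction. An unadjusted p under 0.05 was reached by 5 genes, beside 18.5% of all genes, and the looser rule by 3, all lower, beside 3.8% of all genes lower. Spp1 was called lower and Hexim1 higher by edgeR on the 8 libraries compared, where 8.86% of all genes were called, and by DESeq2 on all 16, where 11.6% were. With no filter on low counts edgeR called Spp1 alone, beside 1.49% of all genes. The median log2 fold change was -0.144, beside -0.005 for all genes, and 32 of the 39 were below 0. It was -0.027 without SNI-Saline replicate 2 and -0.313 without SNI-DMI replicate 1.

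The 3 genes that passed the nominal rule were Spp1 (-0.40 ± 0.14, adjusted p = 0.147), Cd163 (-0.33 ± 0.139, adjusted p = 0.217) and Ms4a6c (-0.59 ± 0.267, adjusted p = 0.249). Spp1 was at 97.9 to 155 CPM in SNI-DMI and at 149 to 204 CPM in SNI-Saline, with 1 SNI-DMI mouse inside the SNI-Saline range. Cd163 was at 3.53 ± 0.302 CPM and Ms4a6c at 1.02 ± 0.246 CPM in SNI-DMI. Lyve1, at 3.55 ± 0.527 CPM, had a log2 fold change of -0.29 ± 0.123 (adjusted p = 0.213). Hexim1 was at 75.5, 87.2, 82.3 and 80 CPM in SNI-DMI, above every SNI-Saline mouse (0.16 ± 0.0555, adjusted p = 0.135).

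Among the genes that had risen with injury, Gpnmb, Trem2 and Ctss had log2 fold changes of -0.02 ± 0.156, -0.11 ± 0.241 and -0.27 ± 0.25 between SNI-DMI and SNI-Saline (adjusted p = 0.963, 0.843 and 0.595). These values were above 0 without SNI-Saline replicate 2. Ptprc was at 5.44, 3.41, 2.79 and 4.76 CPM in SNI-DMI, overlapping SNI-Saline (-0.47 ± 0.228, adjusted p = 0.275). Cd53 was at 3.21, 1.94, 1.35 and 2.34 CPM and Itgam at 1.79, 1.18, 0.742 and 1.61 CPM. Clec7a was at 3.15, 1.96, 1.57 and 2.52 CPM and Siglec1 at 3.62, 1.19, 1.63 and 2.94 CPM. In these 4 genes SNI-DMI replicate 1 was the highest of its group, and all overlapped SNI-Saline. Of 12 neutrophil markers 2 fell in this comparison, beside 1.61% of all genes. Their summed levels were 6.63 to 16.2 CPM in SNI-DMI and 19.6 to 59.4 CPM in SNI-Saline.

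**Figure D5:**
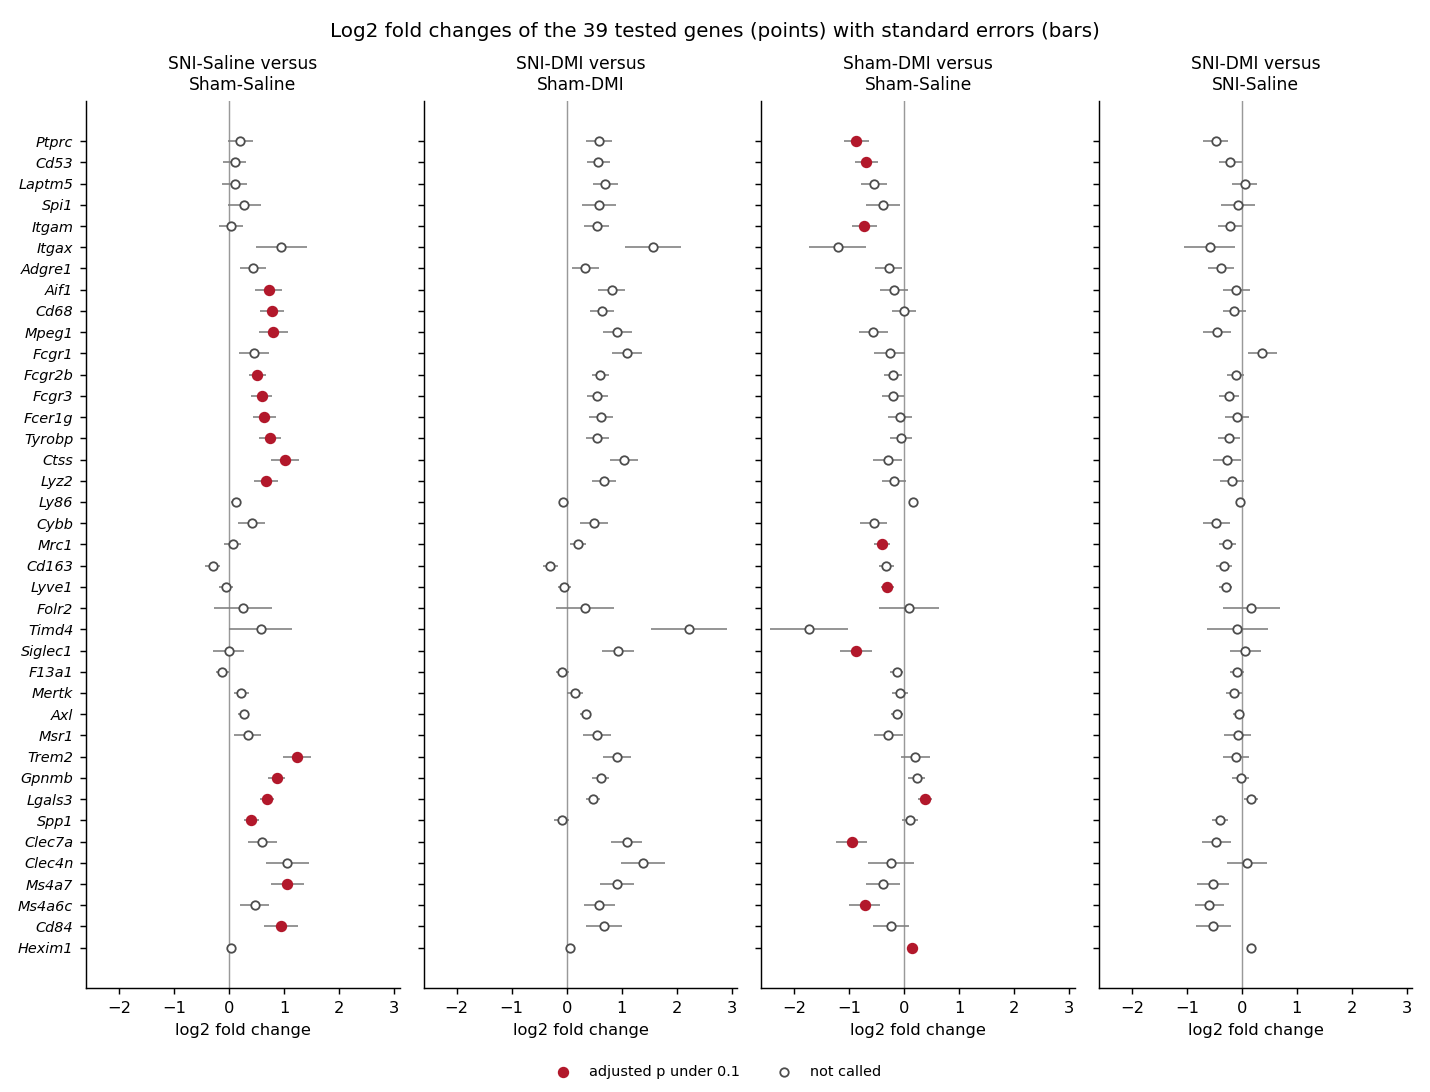
Log2 fold changes (points) and standard errors (bars) of the 39 tested genes in 4 comparisons, with filled points for an adjusted p under 0.1. Calls number 15 for SNI-Saline versus Sham-Saline, 10 for Sham-DMI versus Sham-Saline and 0 for both other comparisons.

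Whether the DMI effect differed between injured and sham-operated mice was tested as an interaction, in which 0 of the 39 genes were called, where 0% of all genes tested were called. An unadjusted p under 0.05 was reached by 2 genes, beside 7.92% of all genes. Siglec1 was 0.95 ± 0.405 higher on the log2 scale in the effect under SNI than in that under sham (edgeR, adjusted p = 0.619), and Spp1 was lower by -0.50 ± 0.198 (edgeR, adjusted p = 0.619).

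A further 58 macrophage genes that are not among the 40, of which 56 were tested, were listed beside them. In SNI-Saline versus Sham-Saline 13 were higher and 0 lower, beside 5.85% and 6.18% of all genes. Their median log2 fold change was 0.274. The 3 with the smallest p were Cd63, a tetraspanin of late endosomes (67.3 ± 0.993 against 50.5 ± 2.55 CPM, 0.42 ± 0.0541, adjusted p = 0.000632), Ctsd, the lysosomal protease cathepsin D (481 ± 20.1 against 411 ± 10.7 CPM, 0.23 ± 0.049, adjusted p = 0.018), and Cd9, another tetraspanin (491 ± 16.8 against 416 ± 18.8 CPM, 0.24 ± 0.0578, adjusted p = 0.0282). All 3 are also expressed by neurons and glia. The 13 included all 7 genes called higher in Sham-DMI versus Sham-Saline, at means of 67.3 to 1777 CPM in SNI-Saline. Which cells the RNA of those 7 genes came from was not tested. Among the listed genes below 0, Plek and Ikzf1 were not called (adjusted p = 0.306 and 0.428). In SNI-DMI versus SNI-Saline 0 were higher and 2 lower, where 1.61% of all genes were lower. Ccr2, the chemokine receptor of inflammatory monocytes, was at 3.57 ± 0.764 against 5.53 ± 1.47 CPM (-0.63 ± 0.172, adjusted p = 0.0904), and Cd33, a sialic acid receptor of myeloid cells, at 2.43 ± 0.634 against 4.02 ± 1.14 CPM (-0.72 ± 0.207, adjusted p = 0.0973). The calls of Ccr2 and Cd33 were lost in 11 and 13 of the 16 fits that left out 1 library, with the replicate block, and when GC content and length trends were removed. Chil3, a chitinase-like protein of myeloid cells, was not called (-1.61 ± 0.494, adjusted p = 0.11). Cd63, Fabp5 and Apoe had the smallest p among those above 0 (adjusted p = 0.125, 0.292 and 0.424). In Sham-DMI versus Sham-Saline 7 of 56 were higher and 12 lower, beside 11.6% and 11.9% of all genes, and in SNI-DMI versus Sham-DMI 1 was higher, beside 0.374% of all genes.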

How the data were processed

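RNA was sequenced as stranded mRNA libraries with 50-base read pairs from 16 mice, 4 per group, grouped by the sample labels. The deposited values are read counts per gene. For these counts the authors' processing notes name HISAT2, HTSeq and DESeq2 and the mm10 genome. The annotation release and strand setting are not given in the sources used here. The 5 lines of unassigned reads in each file, 18.83% to 20.44% of reads, were left out. Of 52636 genes, 52403 were matched to GENCODE M21 for coordinates and exon lengths and 233 were not.

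Counts were filtered with filterByExpr, normalised by TMM and fitted with edgeR's quasi-likelihood test in 1 model of the 4 groups over all 16 libraries, with Benjamini-Hochberg adjustment over 21371 genes and a threshold of 0.1. Levels are CPM, scaled to effective library size, and RPKM divides these by exon length. Intervals are SDs over mice or standard errors of the fit. The scripts were tested on simulated data. Alternatives were no filter, at least 10 counts in every library, upper-quartile and RLE scaling, the replicate number as a block, DESeq2, fits on the 8 libraries of a comparison, removal of GC content and length trends (mgcv), each library left out, the longest transcript as gene length, and a nominal rule (unadjusted p below 0.05, log2 fold change of 0.32 or more in size).

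The members and all lists were chosen with earlier results of these data known. Values in each library are given for the 20 members with the smallest p among the 24 called in any comparison. Of the other macrophage genes, the 3 with the smallest p in each direction are named in SNI-Saline versus Sham-Saline and in SNI-DMI versus SNI-Saline, except 1 that is not reported here. Software was matplotlib 3.10.9, scipy 1.17.1, numpy 2.4.6 and pandas 2.3.3 under Python 3.11.15, and edgeR 4.0.16, DESeq2 1.42.0 and mgcv 1.9.3 under R 4.3.3.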

Additional observations from a re-analysis of the deposited data

Results flagged for a closer look

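Each of the 156 sets of 4 mice, 1 per tested gene and group, was searched for a mouse far from the other 3 (Dixon's criterion at 95%), which chance meets in about 1 in 20 sets. SNI-Saline replicate 2 stood above its group for Ptprc at 8.6 CPM, Laptm5 at 16.8 CPM, Spi1 at 5.64 CPM, Mpeg1 at 40 CPM, Ctss at 46.3 CPM and Hexim1 at 74.7 CPM. Sham-Saline replicate 1 stood above its group for Ptprc at 6.99 CPM and below it for Fcgr1 at 1.25 CPM. Single mice also stood high for Folr2, at 0.169 CPM in Sham-Saline replicate 2 and 0.241 CPM in SNI-Saline replicate 3, for Timd4 at 0.452 CPM in SNI-DMI replicate 4, and for F13a1 at 8.04 CPM in Sham-DMI replicate 4. Folr2 and Timd4 rest on at most 15 and 30 counts.

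The DMI effect differed between injured and sham-operated mice at an unadjusted p under 0.05 for Siglec1, by 0.945 on the log2 scale, and for Spp1, by -0.497, in edgeR's test of the interaction. An unadjusted p this low was reached by 2 of the 39 genes and by 7.92% of all genes, and neither passed the adjustment over all genes (adjusted p = 0.619 for both).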

How the results depend on the processing

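Calls of the 39 tested genes depended on single libraries. Leaving out 1 library gave 3 to 16 calls for SNI-Saline versus Sham-Saline, 0 to 2 for SNI-DMI versus SNI-Saline, 4 to 11 for Sham-DMI versus Sham-Saline and 0 to 14 for SNI-DMI versus Sham-DMI. Whether calls over all genes changed as much in those fits is not given here. For SNI-DMI versus SNI-Saline the count was 1 with no filter, 2 with DESeq2 on 16 or on 8 libraries, 2 with edgeR on 8 libraries and 3 by the nominal rule. For SNI-DMI versus Sham-DMI it was 15 with no filter, 11 with DESeq2 on 16 libraries, 10 with DESeq2 on 8 and 26 by the nominal rule. Removing GC content and length trends left 4 calls in Sham-DMI versus Sham-Saline and 10 in SNI-Saline versus Sham-Saline. In SNI-Saline versus Sham-Saline edgeR on the 8 libraries compared also called Axl, Itgax, Clec4n and Clec7a higher, and the share of all genes called there is not given here. The nominal rule gave 2 for the difference between DMI effects. Without 1 library, log2 fold changes crossed 0 for Gpnmb (-0.106 to 0.182), Trem2 (-0.234 to 0.154) and Ctss (-0.471 to 0.135) in SNI-DMI versus SNI-Saline, for Spp1 in SNI-DMI versus Sham-DMI (-0.197 to 0.032), and for Mrc1 (-0.011 to 0.172), Ptprc (-0.062 to 0.416), Cd53 (-0.023 to 0.217) and Itgam (-0.046 to 0.127) in SNI-Saline versus Sham-Saline. With the replicate block the counts were 12 for SNI-Saline versus Sham-Saline and 1 for SNI-DMI versus Sham-DMI. For the replicate block and for the removal of GC content and length trends, the share of all genes called is not given here. Deviations of same-numbered mice from their group means correlated at -0.081 to 0.184, over 0.1 in 5 of 24 pairs. Of 16 libraries, 7 correlated best with their own number. Whether same-numbered mice share more than a number cannot be told from these correlations. The cause of the changes in calls and fold changes was not tested. Genes with few counts, such as Folr2 and Timd4, limit what this depth can show.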

Other observations

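In Sham-DMI versus Sham-Saline 7 of 56 other macrophage genes were called higher and 12 lower, beside 11.6% and 11.9% of all genes, and the genes named here were chosen after their values were seen. The 7 that rose included the lysosomal proteases Ctsd (491 ± 22.8 against 411 ± 10.7 CPM, adjusted p = 0.00327) and Lgmn (397 ± 23.6 against 327 ± 20 CPM, adjusted p = 0.00559) and the lipid carrier Apoe (1704 ± 214 against 1422 ± 72.5 CPM, adjusted p = 0.038), which other cells of the ganglion also express. The 12 that fell included the haematopoietic genes Plek (9.93 ± 0.593 against 13.2 ± 1.3 CPM, adjusted p = 0.00822) and Ikzf1 (2.26 ± 0.243 against 3.2 ± 0.47 CPM, adjusted p = 0.0149), the kinase Syk (2.57 ± 0.409 against 4.17 ± 0.704 CPM, adjusted p = 0.0511) and Ccr2 (3.6 ± 0.254 against 5.15 ± 0.6 CPM, adjusted p = 0.0493). In SNI-Saline versus Sham-Saline all 3 chains of complement C1q rose, C1qa (34.3 ± 11.4 against 20.8 ± 2.01 CPM, adjusted p = 0.059), C1qb (30.3 ± 9.1 against 17.9 ± 1.86 CPM, adjusted p = 0.0521) and C1qc (28.2 ± 7.35 against 17.5 ± 2.16 CPM, adjusted p = 0.056). Adjusted p are from edgeR's quasi-likelihood test.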
